A study of Mus musculus with 12 samples.

Results

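Solute carriers are the membrane proteins whose gene symbols begin with Slc, and their transcripts were described here in resting B cells and in naive helper T cells of the mouse spleen. Transcripts are given as adjusted TPM, a length-corrected value whose adjustment is not given in the sources used here. Members were genes whose symbol starts with Slc plus a digit and whose adjusted TPM reached 1 in at least 3 of the 12 libraries. Of 41128 genes in the table, 377 carried such a symbol, 169 reached this level, and 166 remained after Slc2a1, Slc2a3 and Slc15a2 were left out. These 166 members belonged to 42 families. By their names 161 encode transporters, and the other 5 are a pseudogene (Slc2a4rg-ps), a scaffold protein (Slc9a3r1), an adaptor protein (Slc4a1ap) and the opposite-strand genes Slc7a6os and Slc36a3os. The members were thus chosen by their measured level over the 12 libraries, and their levels are a description.

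The 12 libraries formed 4 groups of 3, all of strain C57BL/6J, taken from the spleen at an age of 6 to 8 weeks, with no further allele or treatment in the labels. Female and male B cells were resting cells without CD43, a surface protein of activated B cells, and female and male T cells were naive CD4+ CD62L+ cells sorted for low CD44 and no CD25. RNA came from 1000000 cells a library, and the replicates are described as pools of mice, so their spread is that of pools and not of single animals. Fewer cells of a type and less RNA per cell cannot be told apart in such bulk samples.

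Solute carriers move ions, sugars, amino acids, nucleosides, lipids and metals across membranes, either downhill or by coupling to the gradient of another solute. Some families sit in the plasma membrane and set nutrient uptake, cell volume and pH, others load the Golgi, endosomes and lysosomes, and the large Slc25 family exchanges metabolites across the inner mitochondrial membrane. Naive lymphocytes are small quiescent cells with a modest nutrient demand, and several carriers are known to be raised after antigen activation. Related carriers of a family often move the same substrate from a different compartment or with a different affinity.

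The labels were checked against marker genes. The 4 B cell markers summed to between 2220 and 2643 in B cell libraries and to at most 4.91 in T cell libraries, and the 5 T cell markers summed to between 1017 and 1194 in T cells with no B cell sum above 14.1. The 4 cell cycle genes were all higher in B cells (sum 22.1 to 48.2 against 3.47 to 5.47), as were the 3 platelet genes (4.05 to 16.9 against 0.343 to 0.612) and both tested monocyte and macrophage genes of 5 listed (list sum 9.40 to 13.6 against 1.11 to 7.38). The part of these genes in the differences given here was not tested. Levels of carriers typical of such other cells were mixed. Slc4a1, the anion exchanger of red cells, was at no more than 0.563 in any library. Slc11a1, the phagosomal metal carrier of macrophages, was at no more than 0.530. Slc25a37, best known from red cell precursors, and Slc37a2, known from macrophages, were far higher in B cells, as given below. Slc40a1, the iron exporter of macrophages, was under 1 in 10 libraries and reached 2.13 in the sixth female T cell library and 1.07 in the second female B cell library. The noncoding RNA Yam1 took 32.2% of the total of the first female B cell library and 37.4% of that of the sixth male T cell library, against 2.03% to 17.8% elsewhere, and these libraries were also left out together where stated.

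The members summed to an adjusted TPM of 2419 to 2574 in the 12 libraries as deposited. As a share of the total of each library, which was unequal as deposited, they took 0.247% to 0.452% in B cells and 0.172% to 0.303% in T cells. Of the members, 144 were at 1 or more in every library, 10 had a mean of at least 50 over the 12 libraries and 55 a mean under 5. The median of the means was 8.61. Mitochondrial carriers took 31.6% of the sum in B cells and 34.5% in T cells, ahead of carriers of inorganic ions and pH regulators with 16.98% and 16.3%. Carriers of amino acids, taurine and creatine took 12.9% in B cells and 10.4% in T cells, summing to between 304 and 338 in B libraries and between 253 and 273 in T libraries, which did not overlap. Shares are by class, and the classes take in the 5 members that are no transporters.

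The mitochondrial adenine nucleotide translocator Slc25a5, which exchanges ADP for ATP, had the highest mean level of all members. It ranged from 143 over a median of 160 to 186 in B cells and from 187 over a median of 221 to 262 in T cells. The lowest T cell library lay just above the highest B cell library, and the difference of log2(adjusted TPM + 1), B minus T, was -0.47 ± 0.10 (SE, limma adjusted p = 0.000816). With every library brought to a total of 1000000 this call was lost (adjusted p = 0.739). The phosphate carrier Slc25a3, which brings phosphate to the ATP synthase, came next with 168 to 193 (median 183) in B cells and 187 to 210 (median 196) in T cells. Its ranges overlapped and its difference of -0.12 ± 0.06 did not pass the threshold (adjusted p = 0.0673).

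In the comparison of B with T cells, 122 of the 166 members (73.5%) were past an adjusted p of 0.05, beside 73.0% of all 12520 genes tested. Of these, 55 were higher in B cells and 67 in T cells, or 33.1% and 40.4% of the members beside 31.4% and 41.6% of all genes tested. At a log2 difference of at least 1 there were 21 members higher in B cells (12.7%, beside 11.8% of all genes) and 20 higher in T cells (beside 9.76% of all genes). The 6 B and 6 T cell libraries did not overlap for 103 members (62.0%, beside 53.9% of all genes), 46 of them higher in B (beside 24.2%) and 57 higher in T cells (beside 29.7%). The share of members that differed was thus close to that of all genes. In all, 11 members reached 1 in no T cell library and 6 in no B cell library. They entered through the cell type where they are high, and none of these counts supports a statement about the members as a group. Of the members named here, the 11 hold Slc41a2, Slc15a3, Slc2a6, Slc43a1, Slc16a7, Slc43a3, Slc4a11 and Slc23a1. The 6 hold Slc16a5, Slc35g1, Slc39a8, Slc25a27 and Slc25a35. Their differences and p-values describe genes chosen partly by those same values.

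The split between directions depended on the scaling of the libraries. With every library brought to a total of 1000000, 69 members (41.6%, beside 38.4% of all genes) were higher in B and 27 (16.3%, beside 15.9%) in T cells. With the protein-coding genes brought to that total it was 82 (49.4%, beside 45.3%) and 36 (21.7%, beside 23.6%). The median of all genes then moved by 0.34 and 0.26 on the log2 scale, and the median of the members lay 0.06 above that of all genes in both cases, beside 0.04 as deposited. With totals of 1000000, 11 of the 122 members past the threshold turned in sign, none of them past the threshold in the new direction and none with a log2 difference above 0.36 as deposited. All 41 members with a log2 difference of at least 1 kept their direction under each of 4 other scalings. These scalings moved the median of all genes by no more than 0.34, so differences of that size could hardly turn and this is no separate support. With the first female B cell and the sixth male T cell libraries left out the counts were 55 and 67.

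**Figure D1:**
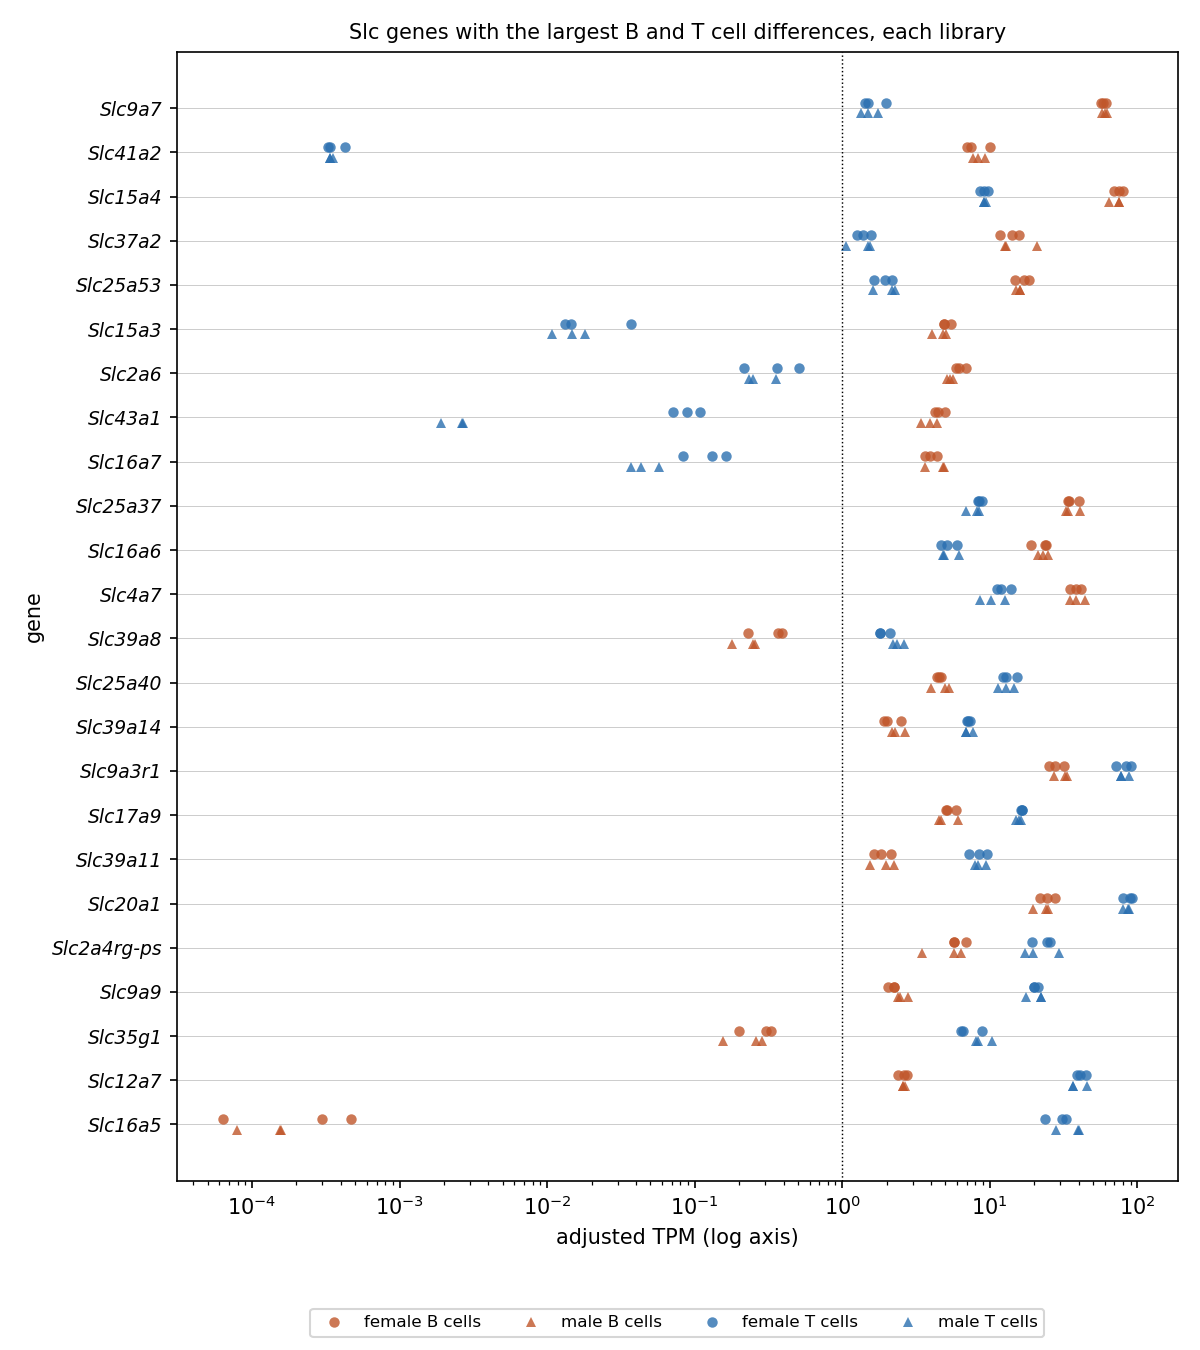
Adjusted TPM (log axis) of the 12 members with the largest difference in each direction, 1 point per library, circles for females and triangles for males, orange for B cells and blue for T cells. The dotted line marks the level of 1, and in every row the 6 B cell and 6 T cell points are separate, as the choice of these genes required.

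**Figure D2:**
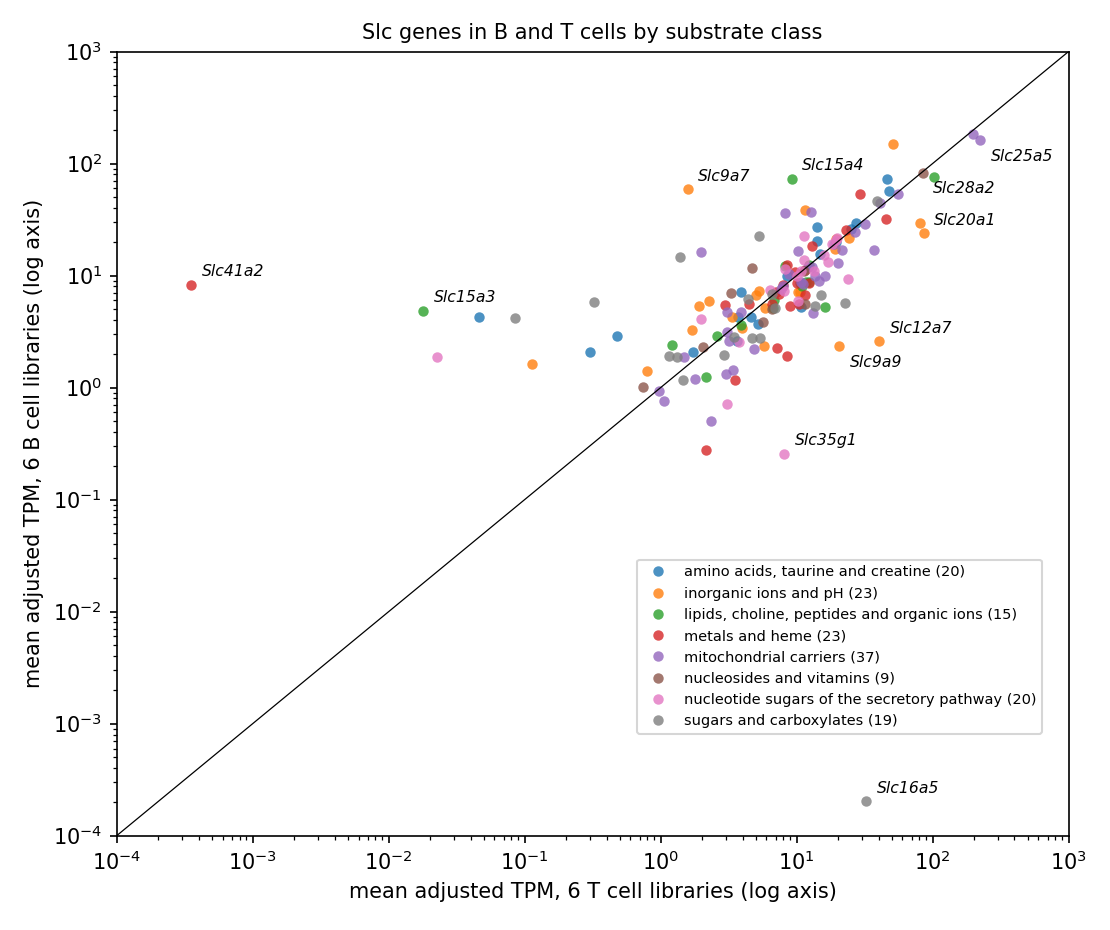
Mean adjusted TPM of the 166 members in 6 T cell libraries (horizontal, log axis) and 6 B cell libraries (vertical, log axis), coloured by substrate class with the number of members, and with the line of equal levels. Most members lie near the line, with Slc9a7, Slc15a4 and Slc41a2 above it and Slc16a5, Slc12a7 and Slc35g1 below it.

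The members with the largest difference toward B cells, Slc9a7, and toward T cells, Slc16a5, came from families with members past the threshold in each direction. Of 27 families with at least 2 measured transporters, 17 had members past the threshold in each direction, and 8 families had them at a log2 difference of at least 1 in each direction. Over all genes tested, 31.4% were higher in B and 41.6% higher in T cells, so mixed families could be frequent in any grouping. How many other groupings would give was not tested. The count of 17 also depended on scaling. With all libraries brought to the same total, Slc4, Slc10, Slc27 and Slc30 had no member past the threshold toward T cells. The families described next were chosen after their values were seen.

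The Slc9 family exchanges sodium or potassium ions for protons, and most of its measured members work in the Golgi and endosomes. Slc9a7, the exchanger of the trans-Golgi network (chrX:20105754-20291807, minus strand), stood at 56.8 to 62.8 (median 59.3) in B cells and 1.33 to 1.98 (median 1.495) in T cells. Every B cell library was far above every T cell library, with a mean 37.6 times as high and a log2 difference of 4.55 ± 0.07 (SE, limma adjusted p = 3.59e-15), the largest of all members toward B cells. Slc9a9, the exchanger of recycling endosomes (chr9:94669909-95230445, plus strand), went the other way, with 2.04 to 2.79 (median 2.31) in B cells and 17.5 to 22.4 (median 20.6) in T cells. The T cell mean was 8.70 times the B cell mean, and the log2 difference was -2.68 ± 0.07 (adjusted p = 9.20e-13).

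Slc9a8, the exchanger of the Golgi, had means of 21.4 in B and 19.4 in T cells, and its difference of 0.14 ± 0.06 missed the threshold (adjusted p = 0.0539). It was past the threshold toward B cells under each of 4 other scalings, with adjusted p of 0.00249 to 0.0443.

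The bases before the start sites of this pair are shown because they differ in base composition. Both come from RefSeq (GRCm38.p6) and cover the 250 bases before the first listed start of the gene, 5′ to 3′ on the strand of the gene, with the GC box GGGCGG or its reverse complement in capitals. The window of Slc9a7 is chrX:20291828-20292077 (minus strand) and that of Slc9a9 is chr9:94669642-94669891 (plus strand), and the starts lie 20 and 17 bases from the nearest GENCODE transcript start.
Slc9a7: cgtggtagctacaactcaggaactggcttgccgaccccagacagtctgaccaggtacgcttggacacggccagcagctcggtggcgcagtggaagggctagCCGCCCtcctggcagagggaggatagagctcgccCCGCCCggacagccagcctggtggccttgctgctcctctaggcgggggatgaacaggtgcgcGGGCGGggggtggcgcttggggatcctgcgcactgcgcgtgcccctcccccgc
Slc9a9: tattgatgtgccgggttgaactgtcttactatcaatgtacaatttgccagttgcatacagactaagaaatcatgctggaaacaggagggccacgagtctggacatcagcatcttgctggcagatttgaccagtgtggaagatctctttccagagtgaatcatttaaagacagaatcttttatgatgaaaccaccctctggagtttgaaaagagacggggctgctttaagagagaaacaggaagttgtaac

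The window of Slc9a7 had a GC content of 69.6%, 19 CG dinucleotides and 3 GC boxes, while that of Slc9a9 had 42.8%, 3 and 0. The reverse held for the glucose-6-phosphate carriers Slc37a1 and Slc37a2, shown for comparison. Slc37a2, higher in B cells, had a window (chr9:37255739-37255988, minus strand) with a GC content of 53.6%, 6 CG dinucleotides and 0 GC boxes, and Slc37a1, higher in T cells, had a window (chr17:31295974-31296223, plus strand) with 69.6%, 21 and 1.
Slc37a2: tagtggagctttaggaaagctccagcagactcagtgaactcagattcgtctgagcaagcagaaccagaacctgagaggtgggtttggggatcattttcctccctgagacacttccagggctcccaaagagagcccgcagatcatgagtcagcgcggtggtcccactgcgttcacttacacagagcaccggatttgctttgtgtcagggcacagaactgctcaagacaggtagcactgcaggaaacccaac
Slc37a1: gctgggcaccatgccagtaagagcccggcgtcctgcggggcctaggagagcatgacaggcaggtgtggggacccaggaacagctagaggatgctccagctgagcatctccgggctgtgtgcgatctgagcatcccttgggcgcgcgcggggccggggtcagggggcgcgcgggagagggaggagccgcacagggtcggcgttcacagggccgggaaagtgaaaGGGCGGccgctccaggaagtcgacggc

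Longer windows, from 250 bases before to 50 bases after the start, were found for 119 of the 161 transporters and searched for short motifs. A GC box lay in 7 of 11 windows of transporters higher in B cells by a log2 of at least 1, in 8 of 14 of those higher in T cells, and in 63.9% of all 119, beside 32.9% of 27025 genes with a window, expressed or not. The PU.1-type letters GAGGAAGT were in 0 of the 11 and 0 of the 14 (2.44% of all genes), and the TCF/LEF-type letters CTTTGAA were in 1 of each (4.64% of all genes). The RUNX-type letters TGTGGTT were in 0 and 1 (4.46%), and the E-box CAGCTG in 1 and 3 (12.8%). Both strands were searched, and a match is a run of letters, not a binding site.

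The Slc12 family couples chloride to potassium or sodium and sets cell volume. Slc12a7, the potassium-chloride cotransporter KCC4 (chr13:73733094-73816754), was at 2.38 to 2.75 (median 2.60) in B cells and 36.4 to 45.7 (median 39.97) in T cells. The T cell mean was 15.7 times as high, with a log2 difference of -3.53 ± 0.07 (limma adjusted p = 4.89e-14). KCC1, encoded by Slc12a4, had means of 4.25 in B and 3.32 in T cells (log2 difference 0.28 ± 0.07), and the sodium-potassium-chloride cotransporter Slc12a2 had 3.42 and 3.97 and missed the threshold.

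The Slc16 family carries lactate, pyruvate and other monocarboxylates, and all 7 of its measured members were past the threshold (beside 73.0% of all genes). Of these, 3 (42.9%, beside 31.4%) were higher in B and 4 (57.1%, beside 41.6%) in T cells. With totals of 1000000 it was 3 and 2, without Slc16a10 (adjusted p = 0.438) and Slc16a13 (adjusted p = 0.866), and with median-ratio scaling Slc16a13 alone was lost (adjusted p = 0.0882). Slc16a5 (chr11:115462474-115474398), a member whose substrates are less well defined, had the largest difference of all members toward T cells. It was at 23.6 to 40.1 (median 31.6) in T cells, while no B cell library exceeded 0.000465, with a log2 difference of -5.04 ± 0.10 (adjusted p = 6.38e-14). Slc16a5 entered as a member through T cells alone, since it reached 1 in no B cell library, and no fold is given against values so near to 0. The lactate carrier Slc16a1 (MCT1) was also higher in T cells, at 11.9 to 15.7 against 3.85 to 6.13 in B cells (log2 difference -1.23 ± 0.09). Toward B cells stood Slc16a6, at 18.9 to 24.6 against 4.65 to 6.19 (log2 difference 1.91 ± 0.08), and the pyruvate and lactate carrier Slc16a7 (MCT2), at 3.64 to 4.88 against no more than 0.163 (log2 difference 2.26 ± 0.07).

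Some carriers of this family reach the surface only with a partner protein, basigin or embigin. Basigin (Bsg) had means of 41.1 in B and 38.4 in T cells and missed the threshold (adjusted p = 0.234). Embigin (Emb) was at 148 to 182 in T cells and 1.14 to 2.29 in B cells (log2 difference -5.92 ± 0.11, adjusted p = 3.84e-14).

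**Figure D3:**
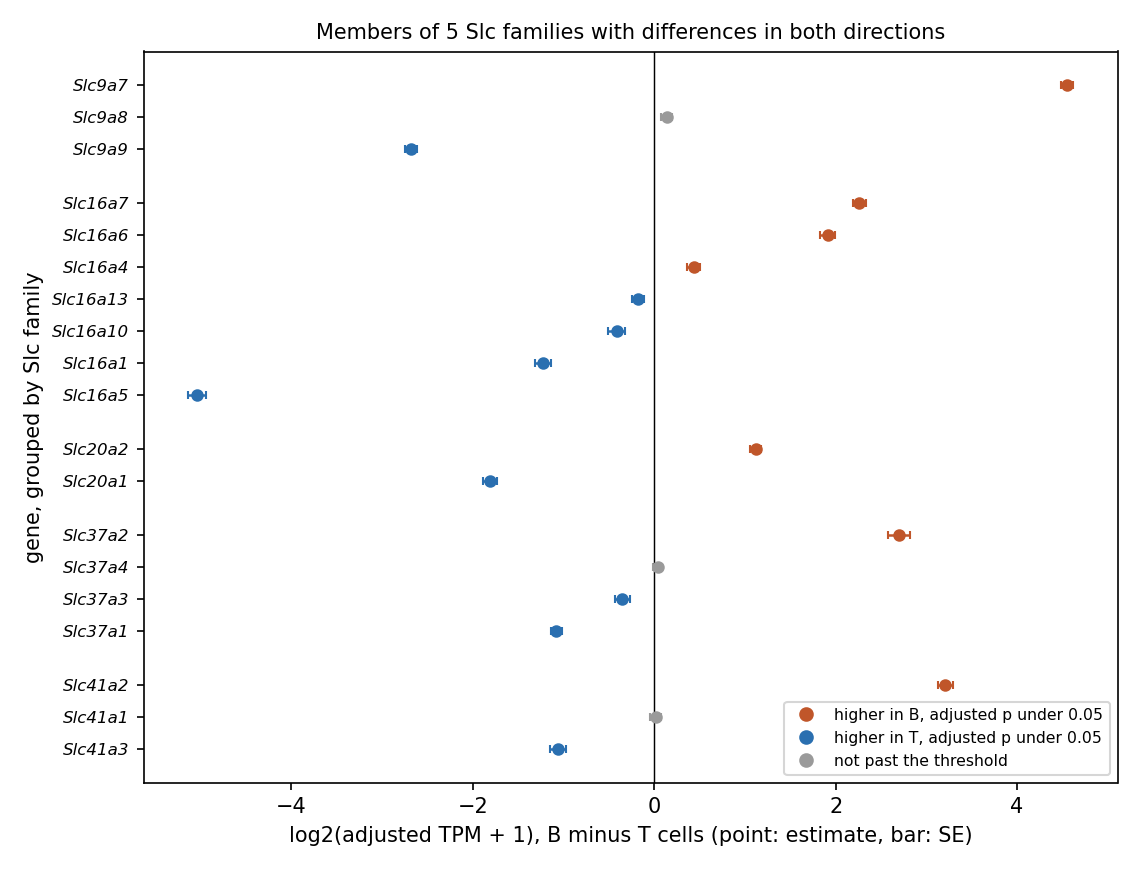
Difference of log2(adjusted TPM + 1), B minus T cells, for transporters of 5 smaller Slc families with a difference of at least 1 in each direction, with the SE as a bar, orange for higher in B, blue for higher in T and grey for past no threshold. Each family has points on both sides of 0, from 4.55 for Slc9a7 to -5.04 for Slc16a5.

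Slc20a1 and Slc20a2 are sodium-phosphate cotransporters that also serve as receptors for retroviruses. Slc20a1 (chr2:129198764-129211616) was at 79.6 to 92.1 (median 87.2) in T cells and 19.7 to 27.6 (median 24.3) in B cells, a mean 3.60 times as high (log2 difference -1.81 ± 0.07, limma adjusted p = 1.06e-10). Slc20a2 was at 1.67 to 2.16 in T cells and 4.73 to 5.84 in B cells (log2 difference 1.12 ± 0.06). On the length-corrected scale Slc20a1 had the higher level of the pair in both cell types, and their sum was 81.5 to 94.0 in T cells and 24.95 to 33.1 in B cells.

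Slc37a2 exchanges glucose-6-phosphate for phosphate in the endoplasmic reticulum and is known from macrophages. It was at 11.8 to 20.8 (median 13.6) in B cells and 1.06 to 1.57 (median 1.44) in T cells, a mean 10.6 times as high (log2 difference 2.70 ± 0.12, adjusted p = 2.85e-10). Slc37a1 was higher in T cells, at 13.8 to 16.5 against 6.01 to 7.35 (log2 difference -1.08 ± 0.07), and the sum of the 4 members overlapped between the cell types, at 29.1 to 38.6 in B and 29.3 to 31.4 in T cells. Of the 5 monocyte and macrophage genes listed, the 2 tested, Lyz2 and Cd68, were also higher in B cells. Lyz2 was at 6.82 to 11.1 in B cells and 0.0335 to 2.52 in T cells. Csf1r, C1qa and Vcam1 did not pass the level rule, and their values overlapped between the cell types. The part of macrophage transcripts in the level of Slc37a2 was not tested.

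The Slc41 family transports magnesium. Slc41a2 was at 7.05 to 10.1 (median 7.97) in B cells and at no more than 0.000425 in any T cell library (log2 difference 3.21 ± 0.08, adjusted p = 9.21e-13). Slc41a3 was higher in T cells, at 2.64 to 4.16 against 1.02 to 1.34 (log2 difference -1.06 ± 0.09), and Slc41a1 had means of 7.11 and 7.02, a difference of 0.01 ± 0.06.

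Members of other families were also higher in B cells, though not every such family pointed that way alone. Slc15a4, which exports histidine and peptides from endolysosomes and is required for signalling by endosomal Toll-like receptors (chr5:127595664-127632897), was at 64.7 to 79.9 (median 75.0) in B cells and 8.64 to 9.66 (median 9.11) in T cells. The B cell mean was 7.99 times as high (log2 difference 2.87 ± 0.06, limma adjusted p = 6.66e-14). Its relative Slc15a3 was at 4.08 to 5.42 in B cells and at no more than 0.0369 in T cells (log2 difference 2.52 ± 0.06). Slc15a3 entered as a member through B cells alone, since it reached 1 in no T cell library.

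In the Slc43 family, Slc43a1, a carrier of large neutral amino acids, was at 3.39 to 5.01 in B cells, while no T cell library exceeded 0.109 (log2 difference 2.32 ± 0.07). Slc43a2, a similar carrier, was at 17.9 to 24.5 against 13.003 to 16.5 (0.52 ± 0.07), and Slc43a3, a nucleobase carrier, at 2.35 to 3.27 against 0.382 to 0.631 (1.39 ± 0.07). Slc43a1 and Slc43a3 likewise reached 1 in no T cell library.

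The Slc4 family moves bicarbonate, chloride and other anions and sets pH. The sodium-bicarbonate cotransporter Slc4a7 was at 35.2 to 44.5 (median 38.4) in B cells and 8.64 to 13.9 (median 11.6) in T cells (log2 difference 1.69 ± 0.09, adjusted p = 2.53e-09), and Slc4a8 and Slc4a11 were higher in B cells by 0.66 ± 0.08 and 1.24 ± 0.07, the latter a gene that reached 1 in no T cell library. The anion exchanger Slc4a2 was higher in T cells by a small difference (-0.14 ± 0.05, adjusted p = 0.0326), a call lost under each of 4 other scalings (adjusted p of 0.0746 to 0.361), with the sign turned to 0.23 with totals of 1000000 and 0.14 with protein-coding totals. Slc2a6, a hexose carrier of lysosomes, was at 5.10 to 6.85 in B cells and 0.215 to 0.511 in T cells (log2 difference 2.37 ± 0.07). The Slc2 family also had a member past the threshold toward T cells, under each of the 4 other scalings as well.

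Among mitochondrial carriers, iron importers were higher in B cells. Slc25a37 (mitoferrin-1), which brings iron into mitochondria for heme and iron-sulfur clusters (chr14:69241848-69285112), was at 32.7 to 40.7 (median 34.2) in B cells and 6.86 to 8.81 (median 8.39) in T cells, a mean 4.39 times as high (log2 difference 2.00 ± 0.07, adjusted p = 3.34e-11). Its relative Slc25a28 (mitoferrin-2) was higher by 0.64 ± 0.05. Mitoferrin-1 is best known from red cell precursors, and the hemoglobin gene Hbb-bs ran from 0.210 to 154 over the B cell libraries. In the T cell libraries Hbb-bs ran from 1.51 to 32.3. The part of red cell transcripts in the level of Slc25a37 was not tested.

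Slc25a53, an X-linked carrier with no assigned substrate, was at 14.8 to 18.6 (median 15.99) in B cells and 1.60 to 2.28 (median 2.06) in T cells (log2 difference 2.54 ± 0.08, adjusted p = 7.48e-12). Every B cell library lay above every T cell library. Of the 37 members of the mitochondrial class, 3 had a log2 difference of at least 1 toward B cells and 3 toward T cells. Of all genes, 11.8% and 9.76% did.

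Of the 37 mitochondrial carriers, 16 (43.2%, beside 41.6% of all genes) were past the threshold toward T cells, 7 (18.9%, beside 31.4%) toward B cells and 14 in neither direction. With totals of 1000000 the split turned to 6 and 9 (16.2% and 24.3%, beside 15.9% and 38.4% of all genes). Slc25a40, a carrier of glutathione, was at 11.4 to 15.3 in T cells and 4.01 to 5.29 in B cells (log2 difference -1.33 ± 0.08, limma adjusted p = 6.35e-09). Slc25a12, an aspartate-glutamate carrier of the malate-aspartate shuttle, was at 30.7 to 41.4 against 15.1 to 18.3 (-1.08 ± 0.08), and Slc25a27 at 1.76 to 2.82 against 0.281 to 0.686 (-1.15 ± 0.09). The glutathione carrier Slc25a39, the relative of Slc25a40, had means of 12.04 and 12.1 and a difference of -0.01 ± 0.10, with a sign that turned under each of 4 other scalings and a call toward B cells with protein-coding totals (adjusted p = 0.0251).

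Of the 10 measured importers of zinc and manganese of the Slc39 family, 5 (50%, beside 41.6% of all genes) were higher in T cells. Another 3 (30%, beside 31.4%) were higher in B cells. With totals of 1000000 it was 3 in T and 3 in B cells, beside 15.9% and 38.4% of all genes. Slc39a11 was at 7.18 to 9.56 in T cells and 1.54 to 2.23 in B cells (log2 difference -1.71 ± 0.09), Slc39a14 at 6.87 to 7.68 against 1.92 to 2.65 (-1.33 ± 0.07), and Slc39a8 at 1.79 to 2.63 against 0.179 to 0.393 (-1.30 ± 0.06). These 3 stayed past the threshold with totals of 1000000. The zinc carrier Slc30a5, which loads the secretory pathway, was the highest of the metal carriers and was higher in B cells, at 47.7 to 61.3 against 26.8 to 31.2 (log2 difference 0.85 ± 0.07, adjusted p = 1.05e-07). The iron carrier Slc11a2 had means of 5.60 in B and 10.4 in T cells (-0.79 ± 0.05).

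Further T-high members came from other compartments. Slc35g1, a little-studied membrane protein counted with the nucleotide sugar carriers, was at 6.43 to 10.4 (median 8.13) in T cells and 0.154 to 0.331 (median 0.273) in B cells (log2 difference -2.84 ± 0.09, adjusted p = 7.99e-12). Slc35b3, a carrier of the sulfate donor PAPS, was at 22.4 to 25.9 against 8.35 to 10.4 (-1.28 ± 0.06). Slc17a9, which fills vesicles with ATP, was at 15.1 to 16.5 against 4.53 to 6.11 (-1.46 ± 0.07).

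Among the members that are no transporters, the scaffold protein Slc9a3r1 was at 71.3 to 89.9 in T cells and 25.3 to 33.5 in B cells (-1.42 ± 0.08). The pseudogene Slc2a4rg-ps was at 17.3 to 29.6 in T cells and 3.45 to 6.95 in B cells (-1.83 ± 0.15). Both lay in the classes of the families whose names they carry. Without the 5 such genes, the 161 transporters counted 55 higher in B and 64 higher in T cells, beside 31.4% and 41.6% of all genes.

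**Figure D4:**
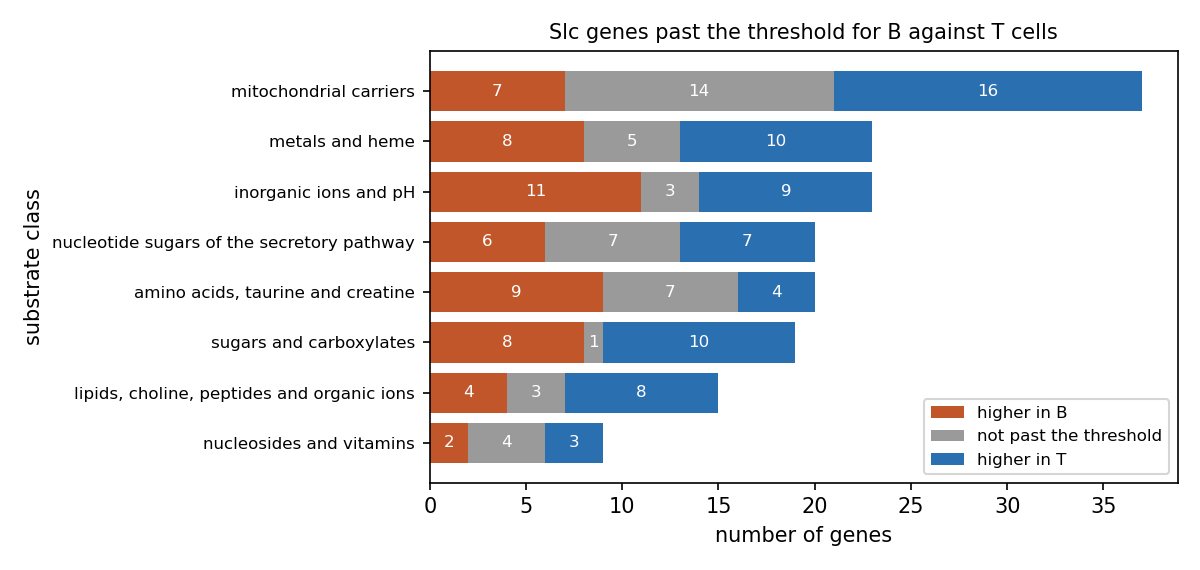
Number of members in each of 8 substrate classes that were higher in B cells (orange), higher in T cells (blue) or past no threshold (grey) at a limma adjusted p under 0.05. Mitochondrial carriers counted 7 higher in B and 16 higher in T cells, a split that turned to 9 and 6 with library totals of 1000000. The class of amino acids, taurine and creatine counted 9 and 4, and 14 and 1 with these totals. Of all genes, 31.4% and 41.6% were called as deposited, and 38.4% and 15.9% with these totals.

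Of the 20 carriers of amino acids, taurine and creatine, 9 (45%, beside 31.4% of all genes) were higher in B, 4 (20%, beside 41.6%) higher in T and 7 past neither, at a class median of 0.17 on the log2 scale beside -0.09 for all genes. The glutamine carrier Slc1a5 was the highest of the class, at 53.8 to 82.4 (median 74.1) in B cells and 40.6 to 56.6 (median 42.6) in T cells, with the lowest B cell library under the highest T cell library (log2 difference 0.64 ± 0.11, limma adjusted p = 0.000183). Slc38a1, another glutamine carrier, had means of 27.3 and 14.2 (0.90 ± 0.09), and Slc38a9, the arginine sensor of lysosomes, 7.11 and 3.89 (0.74 ± 0.12).

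The leucine carrier Slc7a5 (LAT1), known for its rise after activation, was the amino acid carrier with the largest difference toward T cells, at 8.55 to 12.9 against 4.36 to 6.56 (-0.93 ± 0.10). Its heavy chain Slc3a2 had means of 26.1 in B and 24.9 in T cells, a difference of 0.07 ± 0.08 that missed the threshold (adjusted p = 0.440) and was past it toward B cells with totals of 1000000 (adjusted p = 0.0431) and with protein-coding totals.

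Of the 9 carriers of nucleosides and vitamins, 2 (22.2%, beside 31.4% of all genes) were higher in B and 3 (33.3%, beside 41.6%) higher in T cells. The other 4 were past neither. With totals of 1000000 it was 4, 1 and 4, beside 38.4% of all genes higher in B and 15.9% higher in T cells. The equilibrative carrier of the plasma membrane Slc29a1 was at 9.38 to 13.2 in T cells and 4.21 to 6.80 in B cells (-0.93 ± 0.10), and the lysosomal Slc29a3 at 6.44 to 7.52 in B cells and 2.94 to 3.74 in T cells (0.89 ± 0.07). The concentrative purine nucleoside carrier Slc28a2 had the highest level of its class and differed little, with 74.5 to 87.6 (median 84.5) in B cells and 71.7 to 94.6 (median 84.9) in T cells (-0.02 ± 0.07, adjusted p = 0.759). Its neighbour Gm14085, which RefSeq names Slc28a2b and which the symbol rule does not take in, shares 347 bases with it at 98.9% identity. Gm14085 was at 39.8 to 91.4 in T cells and at no more than 0.137 in B cells, and how reads shared by the pair were divided is not given in the sources used here.

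In the other classes, the choline transporter-like protein Slc44a2 was the highest of the carriers of lipids, choline, peptides and organic ions, at 92.0 to 111 in T cells and 72.1 to 79.6 in B cells (-0.43 ± 0.06, adjusted p = 3.65e-05), a call lost with library totals of 1000000 (adjusted p = 0.842). The sugar carrier Slc50a1 led its class with means of 46.1 in B and 39.05 in T cells, with overlapping libraries (0.23 ± 0.09, adjusted p = 0.0345). This call was lost when any of 7 of the 12 libraries was left out in turn, with an adjusted p of up to 0.0876, and in males alone (adjusted p = 0.343). Slc35e1 led the nucleotide sugar carriers with means of 21.6 and 19.9 and missed the threshold (0.11 ± 0.05, adjusted p = 0.0577), and was past it toward B cells under each of 4 other scalings (adjusted p of 0.000624 to 0.0276).

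The 5 members with the highest levels among those that missed the threshold were Slc25a3, Slc28a2, Slc25a36, Slc25a11 and Slc25a4. The pyrimidine nucleotide carrier Slc25a36 had means of 53.4 in B and 55.2 in T cells (-0.04 ± 0.06), the oxoglutarate-malate carrier Slc25a11 44.1 and 41.1 (0.10 ± 0.07), and the muscle-type ADP/ATP translocator Slc25a4 28.6 and 31.6 (-0.14 ± 0.09). Missing the threshold does not show that these genes were equal, and the sign of the difference turned for Slc28a2, Slc25a3, Slc25a36 and Slc25a4 under some other scalings. Slc25a11 was past the threshold toward B cells under each of the 4 (adjusted p of 0.00134 to 0.0408).

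Of 28 other transport proteins in the table that lie outside the Slc symbols, 27 were tested, 9 higher in B, 12 higher in T and 6 past neither. Over all genes tested, 31.4% were higher in B and 41.6% higher in T cells. The organic anion carrier Slco3a1 was at 16.99 to 19.7 in T cells and at no more than 0.336 in B cells (-3.94 ± 0.06). The sphingosine-1-phosphate exporter Spns2 was at 9.24 to 12.2 in B cells and at no more than 0.329 in T cells (3.29 ± 0.07). The transferrin receptor Tfrc, the entry of iron upstream of the mitoferrins, had means of 35.6 in B and 19.2 in T cells (0.86 ± 0.11, adjusted p = 9.28e-06).

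The sexes were then compared. No member passed the threshold in limma, in B cells (0.144% of all genes did, and 1 member was under an unadjusted p of 0.05, beside 2.98% of all genes) or in T cells (0.104% of all genes, and 5 members unadjusted, beside 2.55%). The difference of the sex effects between the cell types passed for no member and no gene (0%, and 1 member unadjusted, beside 2.36% of all genes). Log2 differences between the sexes ran from -0.22 to 0.27 in B cells and from -0.32 to 0.28 in T cells over the members, with a median SE of 0.10.

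The smallest p in B cells was that of Slc25a24, a carrier of ATP-magnesium, with 2.41, 2.71 and 2.36 in females and 1.797, 1.84 and 2.20 in males (0.25 ± 0.09, unadjusted p = 0.0184, adjusted p of 1 in limma). In T cells it was that of Slc37a4, the glucose-6-phosphate carrier of the endoplasmic reticulum, with 5.84, 6.30 and 6.08 in females and 7.35, 7.07 and 7.12 in males (-0.21 ± 0.07, unadjusted p = 0.0151, adjusted p of 1). For the difference of the sex effects it was that of the zinc and manganese importer Slc39a8, with 0.393, 0.230 and 0.366 in female and 0.250, 0.179 and 0.256 in male B cells, and 2.12, 1.81 and 1.79 in female and 2.20, 2.35 and 2.63 in male T cells (0.34 ± 0.13, unadjusted p = 0.0225, adjusted p of 1). In each of these the values of females and males lay apart in at least 1 cell type but not beyond what the adjustment over 12520 genes allows. The 7 X-linked members, Slc9a7 and Slc25a53 among them, were not past the threshold either.

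The spread between replicates was small for most members, with a median SD within groups of 0.12 on the log2 scale beside 0.13 for all genes tested. It was widest for the bile acid carrier Slc10a1 (0.36), the urea transporter Slc14a1 (0.35) and the myo-inositol carrier Slc5a3 (0.32). Slc14a1 ran from 6.74 to 16.3 in B cells and from 10.998 to 14.002 in T cells.

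Some levels may hold reads of other genes. Transcripts of 18 members matched another gene over at least 200 bases at 97% identity or more, and for 8 of them that gene had a mean level of at least 1. Apart from Slc28a2, these included Slc38a6, which shares 1335 bases with Rab3gap1 (mean 40.8), and Slc25a37, which shares 382 bases with Gm16867 (mean 5.17). Exons of 9 members overlapped those of another gene on the same strand.

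At the edge of the level rule, the members nearest above it were the mitochondrial carrier Slc25a35 with a third-highest value of 1.04 and the ascorbate carrier Slc23a1 with 1.08. Nearest below it were the zinc importer Slc39a4 with 0.874 and the aspartate-glutamate carrier Slc25a13 with 0.859. Of the 208 Slc genes under the rule, 201 were under 1 in every library. The iron exporter Slc40a1 was among the other 7.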

How the data were processed

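RNA was sequenced from 12 libraries of sorted splenic lymphocytes, in 4 groups of 3 taken from the sample titles. The submitters' processing notes name Trim Galore, FastQC, STAR and the build mm10. The values deposited by the authors are a signal per gene, adjusted TPM with lower and upper bounds. The quantifier, the adjustment and the level of the bounds are not given in the sources used here, and totals ran from 561020 to 1453940. These are not counts, so depth is unknown, the spread between replicates limits precision, and values under 1 have little of it. Of the columns of per-sample values, 0 were left unmapped.

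Differences were tested with limma 3.58.1 (R 4.3.3) on log2(adjusted TPM + 1), with a mean-variance trend, 1 coefficient per group over all 12 libraries, genes of at least 1 in at least 3 libraries (12520), Benjamini-Hochberg adjustment over all of them and a threshold of 0.05. A pseudocount of 1 understates differences of low genes. On simulated data with 200 genes changed by a log2 of 1 among 12520, the fit recovered 98.3% for B against T cells, 93.8% and 92.4% for the sexes in B and in T cells and 79.0% for the difference of the sex effects. Of the genes called there, 3.92% to 5.74% were unchanged ones. The simulated libraries varied independently and few genes changed, unlike in these data, so these rates do not measure the power here. Python 3.11.15, pandas 2.3.3, matplotlib 3.10.9 and blastn 2.17.0+ did the rest. Coordinates are from GENCODE M21 (GRCm38).

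The members, the gene lists, the 8 substrate classes (assigned by family number) and the tests were chosen with earlier results of these data known. Genes named by rule were the 12 members with the largest difference in each direction among those past the threshold without overlap, the highest member of each class, the 5 highest that missed the threshold, the member with the smallest p in each sex comparison, and those nearest the level rule. Families, and genes named as their members, were chosen after values were seen. Nothing says that libraries with the same number share mice. Deviations of same-numbered female and male libraries correlated across genes with r of 0.72, 0.55 and 0.52 in T cells, which were treated as paired in an alternative, and of -0.17, -0.04 and -0.34 in B cells. Alternatives changed the pseudocount, scaling, filter, trend, sexes and libraries used. Scaling by protein-coding totals and leaving out both libraries rich in Yam1 were added after the data were seen. Some members are not reported by name here, though the counts include them.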

Additional observations from a re-analysis of the deposited data

Results flagged for a closer look

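Among 68 sets of 6 libraries looked at for the named members, 2 held a library far from the other 5, and chance gives about 1 in 20. In T cells, Slc25a37 was at 6.86 in the fourth male library against 8.23 to 8.81 in the others. In B cells, the pseudogene Slc2a4rg-ps was at 3.45 in the first male library against 5.68 to 6.95. Each stayed on its side of the comparison of B with T cells.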

How the results depend on the processing

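The 24 members with the largest differences kept their direction and their side of the threshold under each alternative run for them. They were chosen for large differences without overlap, so this is no separate support. Members past the threshold for B against T cells numbered 114 to 121 with a library left out, 50 to 55 of them higher in B and 64 to 66 higher in T cells. With all 12 libraries 73.0% of all genes were past it, and the share of all genes with a library left out is not given here. With no minimum difference, the number higher in T cells was 27 with totals of 1000000 and 36 with protein-coding totals, against 67 as deposited. The shares of all genes were 15.9% and 23.6%, against 41.6%. At a minimum log2 difference of 1 there were 41 members, 21 and 20, and with these totals the number higher in T cells was 14 and 17. Of all 12520 genes, 1222 were higher in T cells at that minimum as deposited, and 870 and 1042 with these totals. No member was past the threshold in a comparison of the sexes as analysed, or with any library left out (0 to 0). Without the filter 1 (Slc25a24) was in B cells, 2 (Slc37a4 and Slc39a13) in T cells and 1 (Slc39a8) for the difference of the sex effects, and with a pseudocount of 0.1 it was 1 in T cells (Slc43a1, whose T cell values are under 0.11). The replicate block, in a cell type alone or over 12 libraries, was run for the comparisons of the sexes and not for B against T cells. It called 0 members and changed no call in them.

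Differences near 0 turned. Slc28a2 was at 0.061 with median-ratio scaling, 0.35 with totals of 1000000, 0.039 with quantiles, 0.26 with protein-coding totals (limma adjusted p = 0.0451), and from -0.077 to 0.022 with a library left out, above 0 without the first male B (0.0055) or the fifth male T cell library. Slc25a36 was at 0.040, 0.33, 0.0091 and 0.24 (adjusted p = 0.0496) under these scalings and at 0.0070 in females alone. With library totals and protein-coding totals Slc25a3 was at 0.26 and 0.16 and Slc25a4 at 0.23 and 0.14. Slc37a4 was at -0.056 in males alone and, between the sexes in T cells, at 0.042 with totals of 1000000, and Slc23a1 was at -0.035 with quantiles. The cause was not tested. Unknown depth leaves values under 1, such as those of Slc16a5 in B cells, without a fold.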
